A study of Bos taurus with 6 samples.

Results

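The 31 genes described here encode the enzymes and carriers of mitochondrial fatty acid beta-oxidation. They were taken by name and role out of 22839 gene symbols in the count data. The rule uses no measured value, but earlier results of these data were known when the genes were chosen. All 31 were found and all 31 passed the filter on low counts, as ACOT2 did through 1 of its 2 rows. The other ACOT2 row held 1 read in all 6 libraries together and was not tested. RNA was taken from the longissimus thoracis (LT) muscle of Hanwoo steers, the Korean native breed, kept conventionally on commercial feed, with 1 library per steer. The high-NFMP group (high number of fine marbling particles) held steers 3-8, 10-8 and 10-9, aged 32.5, 33.8 and 34.5 months, and the low-NFMP group held steers 3-1, 3-3 and 10-16, aged 37.8, 33.7 and 35.4 months. The groups were set by image analysis of the marbling and not by any treatment, and the ages of the groups overlap only in part.

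Beta-oxidation shortens fatty acids inside the mitochondrion and is a main source of energy in resting and oxidative muscle. Long-chain acyl groups enter as carnitine esters, are cut by a repeated cycle of dehydrogenation, hydration, a further dehydrogenation and thiolysis, and pass their electrons to the respiratory chain through the electron transfer flavoprotein. Entry is held back by malonyl-CoA, which inhibits the outer carnitine palmitoyltransferase.

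The libraries held between 16283873 and 17192750 counts. Each of the 7 myofibre markers was detected in all libraries, at a sum between 1611420.0 and 2006950.0 normalized counts. Summed slow-fibre markers ranged from 178482 to 284445 normalized counts in the high-NFMP steers and from 192154 to 248196 in the low-NFMP steers, and fast-fibre markers from 395691 to 581686 and from 426477 to 518706. Of the 10 slow-fibre markers, MYL3, a myosin light chain, was lower in every high-NFMP steer, with a log2 fold change of -0.78 (unadjusted p = 0.00253, adjusted p = 0.145 by edgeR), and the other 9 overlapped. Of the fast-fibre markers, PVALB alone had an unadjusted p below 0.05, with a log2 fold change of 1.27 (unadjusted p = 0.019, adjusted p = 0.322 by edgeR). Its groups overlapped, and it had at most 55.6 normalized counts in a steer. The 10 adipocyte markers, all detected, gave 14273, 8616 and 7680.3 summed normalized counts with high NFMP (3-8, 10-8 and 10-9) against 6731, 7532 and 7200.3 with low NFMP, with 3-8 far above the others and no overlap of the groups. In whole muscle, fewer cells of a type and less RNA per cell cannot be told apart. Of the 10 adipocyte markers, 6 were higher and none lower at an unadjusted p below 0.05 by edgeR (5.73% and 5.74% of all tested rows). The summed fibroblast, endothelial and leukocyte markers overlapped between the groups, while single members did not and went both ways. PDGFRA and CDH5 were lower and CLDN5, C1QA, CSF1R and CD14 higher in every high-NFMP steer, where 17.1% of all tested rows had groups that do not overlap. The blood markers summed to at most 91.2. The part of these cell types in the differences was not tested.

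No common shift of the pathway was seen in either direction. Of the 31 genes, 16 had a fold change above and 15 below 1, and the median log2 fold change (high over low NFMP) was 0.03, beside 0.02 over all 15039 tested rows. Only CPT2, the inner carnitine palmitoyltransferase, had an unadjusted p below 0.05, in the direction of the low-NFMP group, and no gene was higher at that threshold. That is 1 of 31, where 11.5% of all tested rows had such a p (5.73% higher and 5.74% lower). Neither the threshold of the study, p below 0.05 with a fold change above 2 (3.9% of all tested rows), nor an adjusted p below 0.05 (0.685% of all tested rows) was reached by any of the 31. Their adjusted p (edgeR quasi-likelihood, Benjamini-Hochberg over all tested rows) lay between 0.303 and 0.988, and DESeq2 gave none below 0.05 either.

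The precision was enough to bound most of these differences. The 95% interval of the log2 fold change lay wholly between -1 and 1, that is within a 2-fold difference in either direction, for 25 of the 31 genes (80.6%), and this was so for 57.3% of all tested rows. The genes were also counted more than most, with a median of 544 normalized counts against 144 for all tested rows. The 6 genes whose interval ran past a 2-fold difference were CPT2, ACAD9, ACAD11, ETFA, ACOT2 and ACOT11, of which ACAD9, ACAD11, ACOT2 and ACOT11 were the least counted of the 31.

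**Figure D1:**
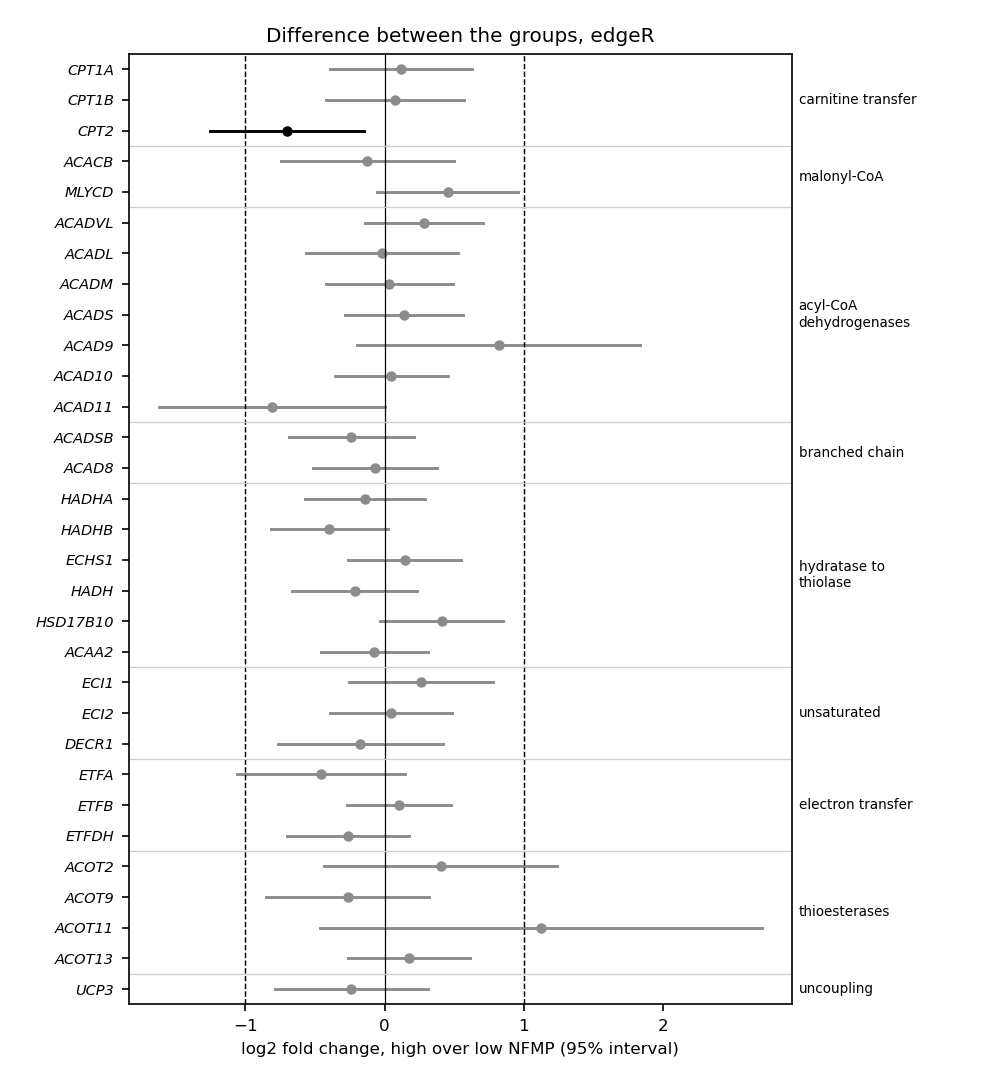
Log2 fold change of the 31 genes, high over low NFMP, on the horizontal axis, with 1 line per gene grouped by role. Points are edgeR estimates and bars 95% intervals, dashed lines mark a 2-fold difference, and black marks an unadjusted p below 0.05, which CPT2 alone has, at -0.70.

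In the carnitine step, CPT1B and CPT1A, the muscle and liver forms of the outer transferase, showed no separation of the groups. CPT1B had 487, 435 and 834 reads with high NFMP (steers 3-8, 10-8 and 10-9) against 579, 535 and 670 with low NFMP (steers 3-1, 3-3 and 10-16). Steer 10-9 was the highest and 10-8 the lowest of all 6 after normalization, so that the high-NFMP group spanned the low-NFMP group. The log2 fold change of CPT1B was 0.07 (95% interval -0.42 to 0.57). CPT1A had 169, 191 and 299 counts against 215, 231 and 208, and a log2 fold change of 0.12 (95% interval -0.39 to 0.63). The low-NFMP steers lay close together in CPT1A, at 210 ± 4.02 normalized counts (SD, n = 3), within the range of the high-NFMP steers at 228 ± 65.7 (SD, n = 3).

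CPT2, which frees the acyl group from carnitine on the inner side, had 97, 101 and 108 reads with high NFMP against 228, 138 and 172 with low NFMP. Every high-NFMP steer lay below every low-NFMP steer, and the high-NFMP steers differed little from each other. Normalized counts were 106 ± 7.19 in the high-NFMP and 173 ± 45.2 in the low-NFMP group (SD, n = 3 each), which gave a log2 fold change of -0.70 ± 0.26 (SE, with an unadjusted p = 0.0162 and adjusted p = 0.303 by edgeR). The value was -0.51 with an unadjusted p of 0.11 by edgeR when steer 3-1, the oldest, was left out, and -0.34 with a p of 0.301 when age was a term of the fit. Groups that do not overlap were found for 2 of the 31 genes, CPT2 and ACAD9, and for 17.1% of all tested rows.

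Malonyl-CoA is made at the mitochondrion by ACACB (acetyl-CoA carboxylase 2) and removed by MLYCD (malonyl-CoA decarboxylase). ACACB had 5415, 2931 and 7863 reads with high NFMP against 6071, 5208 and 7419 with low NFMP. The lowest and the highest steer, 10-8 and 10-9, were both of the high-NFMP group, and the log2 fold change was -0.12 (95% interval -0.74 to 0.49). MLYCD had 205, 258 and 254 reads against 227, 204 and 139. Its normalized counts of 250 ± 39.7 and 182 ± 38.9 (SD, n = 3 each) overlapped between the groups, with a log2 fold change of 0.45 (95% interval -0.05 to 0.96, unadjusted p = 0.0748 by edgeR). Without steer 3-8 or without steer 3-1 its unadjusted p by edgeR was 0.0382 or 0.0478, with an adjusted p of 0.301 or 0.581.

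The acyl-CoA dehydrogenases carry out the opening dehydrogenation of each turn and differ in the chain length they accept. Of the straight-chain enzymes, ACADVL (very long chains) had 1865, 2403 and 2954 reads with high NFMP against 2151, 2055 and 2200 with low NFMP. Its log2 fold change was 0.28 (95% interval -0.14 to 0.70), with steers of the high-NFMP group at both ends of the order. ACADL, ACADM and ACADS, for long, medium and short chains, had log2 fold changes of -0.02, 0.03 and 0.14, each with an interval inside a 2-fold difference. ACADL and ACADM showed the same order of steers within the high-NFMP group as ACACB and CPT1B. Steer 10-9 exceeded steer 10-8 by 2.02-fold in ACADL, 1.80-fold in ACADM, 1.73-fold in CPT1B and 2.42-fold in ACACB, while the low-NFMP steers differed by at most 1.24-fold, 1.16-fold, 1.37-fold and 1.55-fold in these genes. Over all 31 genes, 15 were higher in 10-9 than in 10-8 (48.4%, beside 51.1% of all tested rows), 21 were higher in 10-9 than in 3-8 (67.7%, beside 45.003%) and 19 were higher in 10-8 than in 3-8 (61.3%, beside 46.7%).

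ACAD9, which serves mainly in the assembly of respiratory complex I, and ACAD10 and ACAD11 stand apart from these in function. ACAD9 had 28, 26 and 25 reads against 21, 9 and 18, few reads for a firm value. All 3 high-NFMP steers lay above the low-NFMP steers, and the log2 fold change was 0.82 (standard error 0.48, 95% interval -0.20 to 1.84, unadjusted p = 0.106 by edgeR). It was 0.51 without steer 3-3, 1.05 without 3-1 and 1.28 with age as a term, with no unadjusted p below 0.05 in these edgeR fits. ACAD11 had 90, 38 and 48 reads against 121, 155 and 59. Its log2 fold change was -0.81 (standard error 0.38, unadjusted p = 0.0505 by edgeR), and the groups overlapped. With a steer left out it ranged from -1.23 (without 3-8, unadjusted p = 0.0107 by edgeR) to -0.54 (without 3-3, unadjusted p = 0.231 by edgeR). It was -0.45 with the leading number of a steer's label as a term and -1.11 with age as a term. ACAD10 had 389 ± 32.1 and 376 ± 36.7 normalized counts (SD, n = 3 each), with a log2 fold change of 0.05. The branched-chain enzymes ACADSB and ACAD8, which act in isoleucine and valine breakdown, had log2 fold changes of -0.24 and -0.07.

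The trifunctional protein, formed by HADHA and HADHB, carries out the last 3 steps of the cycle on long chains. HADHA had 1552, 2049 and 1713 reads with high NFMP against 2266, 1771 and 2306 with low NFMP, and HADHB 1132, 1409 and 1361 against 2021, 1536 and 1998. Both genes overlapped between the groups, with log2 fold changes of -0.14 (95% interval -0.57 to 0.29) and -0.40 (95% interval -0.82 to 0.02, unadjusted p = 0.0614 by edgeR). The 2 genes are neighbours in the RefSeq cattle annotation, and in normalized counts both were lowest in steer 3-8 and highest in 10-16. Without steer 10-8 or 3-3 the unadjusted p of HADHB by edgeR was 0.049 or 0.0246. Its value depended on the covariate, at -0.50 (unadjusted p = 0.0195 by edgeR) with the leading number of a steer's label as a term and -0.17 (unadjusted p = 0.502 by edgeR) with age as a term.

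The ratio of HADHB to HADHA reads, which needs no normalization between libraries, was 0.729, 0.688 and 0.795 in the high-NFMP steers and 0.892, 0.867 and 0.866 in the low-NFMP steers. The groups did not overlap, and the low-NFMP steers were nearly equal to each other. The ratio was 0.841 times as large in the high-NFMP group (exact permutation test, two-sided p = 0.1, adjusted p = 0.167 over 5 gene pairs), and 0.1 is the smallest p that 3 steers against 3 can give. The pairs were chosen after the counts had been seen, so this p and its adjustment are descriptive only.

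On shorter chains these steps fall to separate enzymes. ECHS1 (enoyl-CoA hydratase), HADH (3-hydroxyacyl-CoA dehydrogenase) and ACAA2 (3-ketoacyl-CoA thiolase) had log2 fold changes of 0.14, -0.22 and -0.07. ACAA2 varied least of the 31 within the high-NFMP group, at 644 ± 17.3 normalized counts against 678 ± 82.5 (SD, n = 3 each). HSD17B10, a dehydrogenase of branched and short chains that also takes part in mitochondrial tRNA processing, had 490, 538 and 765 reads against 502, 432 and 516. Its groups overlapped and its log2 fold change was 0.41 (95% interval -0.03 to 0.85, unadjusted p = 0.067 by edgeR).

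Unsaturated fatty acids need ECI1, ECI2 (enoyl-CoA isomerases) and DECR1 (2,4-dienoyl-CoA reductase) to move their double bonds. Their log2 fold changes were 0.26, 0.05 and -0.18, with 182 ± 40.0 against 152 ± 13.7, 562 ± 113 against 543 ± 75.3 and 127 ± 22.0 against 143 ± 44.7 normalized counts (SD, n = 3 each). The ECI2 value is uncertain in source, since C23H6orf201, which overlaps it in the RefSeq annotation, was counted between 1.00 and 1.04 times as often in each steer. In all, 8 of the 31 genes overlap another protein-coding gene there, the others being ACAD9, ACAD10, ACAD11, ACADSB, ECHS1, ACOT2 and ACOT11, and their reads may be shared.

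Electrons leave the dehydrogenases through ETFA and ETFB, the subunits of the electron transfer flavoprotein, and ETFDH, its membrane-bound oxidoreductase. ETFA had 662, 823 and 347 reads with high NFMP against 966, 964 and 832 with low NFMP. In normalized counts steer 10-9 lay far below the others, at 2.63-fold less than the highest steer of its own group, while the low-NFMP steers differed by 1.10-fold. The log2 fold change of ETFA was -0.46 (95% interval -1.06 to 0.15), and it ranged from -0.78 without steer 10-8 (unadjusted p = 0.00947, adjusted p = 0.306 by edgeR) to -0.14 without steer 10-9. ETFB, with 938, 1041 and 1182 reads against 1030, 1108 and 1044, was highest in that same steer 10-9 after normalization and had a log2 fold change of 0.10 (95% interval -0.27 to 0.48). ETFDH had 762 ± 79.2 and 915 ± 228 normalized counts (SD, n = 3 each) and a log2 fold change of -0.26.

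The ETFA to ETFB ratio was 0.706, 0.791 and 0.294 in the high-NFMP steers and 0.938, 0.870 and 0.797 in the low-NFMP steers. All 3 high-NFMP steers lay below the low-NFMP steers, steer 10-8 by a narrow margin and 10-9 by far (exact permutation test, two-sided p = 0.1, adjusted p = 0.167 over 5 gene pairs). The ratio of CPT2 to CPT1B did not overlap either, at 0.199, 0.232 and 0.129 against 0.394, 0.258 and 0.257, with the same p. CPT2 by itself already separated the groups, and CPT1B did not. The CPT1A to CPT1B and ACACB to MLYCD ratios overlapped (exact permutation p = 0.9 and 0.5). These 5 pairs were chosen after the counts had been seen, so their p are descriptive only. How often the ratios of other gene pairs separate the groups was not computed. Of single tested rows, 17.1% had groups that do not overlap.

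**Figure D2:**
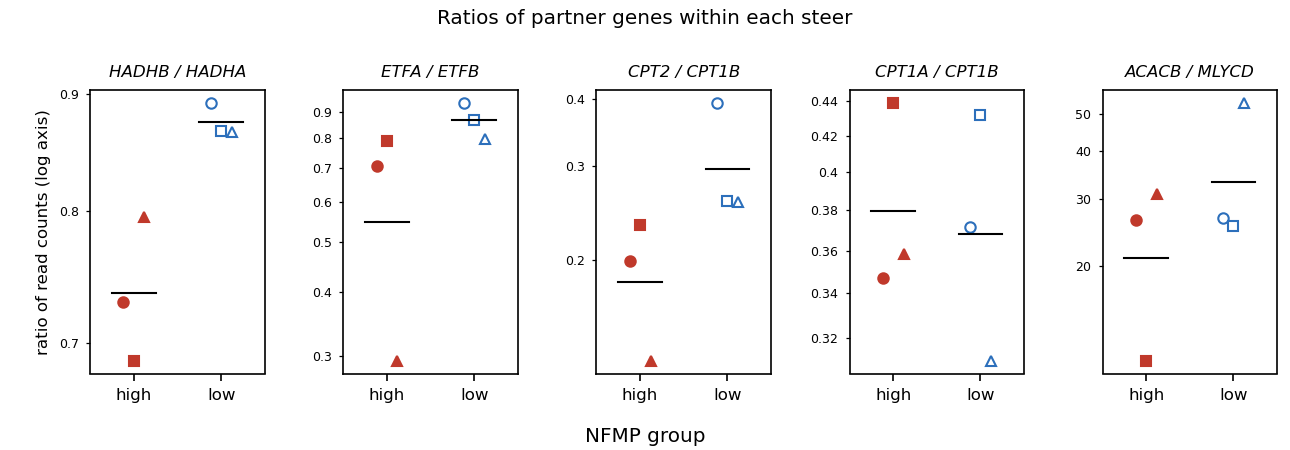
Ratio of read counts of partner genes within each steer, on a log axis that differs between panels, for high (filled) and low (open) NFMP. Circles, squares and triangles are steers 3-8, 10-8 and 10-9 in the high group and 3-1, 3-3 and 10-16 in the low group, and lines are geometric means. HADHB to HADHA runs from 0.688 to 0.795 in the high group and from 0.866 to 0.892 in the low group.

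Thioesterases release free fatty acid from acyl-CoA. ACOT13, ACOT9 and ACOT2 had log2 fold changes of 0.18, -0.27 and 0.40, all with overlapping groups. ACOT11 was the least counted of the 31, at 13, 16 and 13 reads against 1, 17 and 3 reads. Steer 3-3 was the highest low-NFMP steer and in normalized counts lay within the high-NFMP range, the log2 fold change was 1.12 (standard error 0.74, 95% interval -0.46 to 2.71), and it was 0.62 without steer 3-1 and 2.81 without steer 3-3 (unadjusted p = 0.00616, adjusted p = 0.321 by edgeR). With all 6 steers the unadjusted p of ACOT11 was 0.152 by edgeR.

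UCP3, a mitochondrial carrier of muscle named for uncoupling and induced by fatty acids, gave the most reads of the 31 genes. It had 19627, 16713 and 20347 reads with high NFMP against 15619, 22657 and 33273 with low NFMP. The low-NFMP steers held both the lowest and the highest value, 3-1 and 10-16, around a high-NFMP group that varied by 1.10-fold in normalized counts. The log2 fold change was -0.24 (95% interval -0.79 to 0.31), and it turned to 0.16 without steer 10-16. UCP3 made up between 38.0% and 55.7% of the reads of the 31 genes in a steer.

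Summed over the 31 genes, the high-NFMP steers had 41111, 40723 and 47319 normalized counts and the low-NFMP steers 39294, 42300.3 and 60298. Steer 10-16 alone had 33592 of UCP3. Without UCP3 the sums were 21221, 22150 and 26913 against 24349, 21334 and 26706, with a ratio of the means of 0.971. The groups overlapped in both sums.

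**Figure D3:**
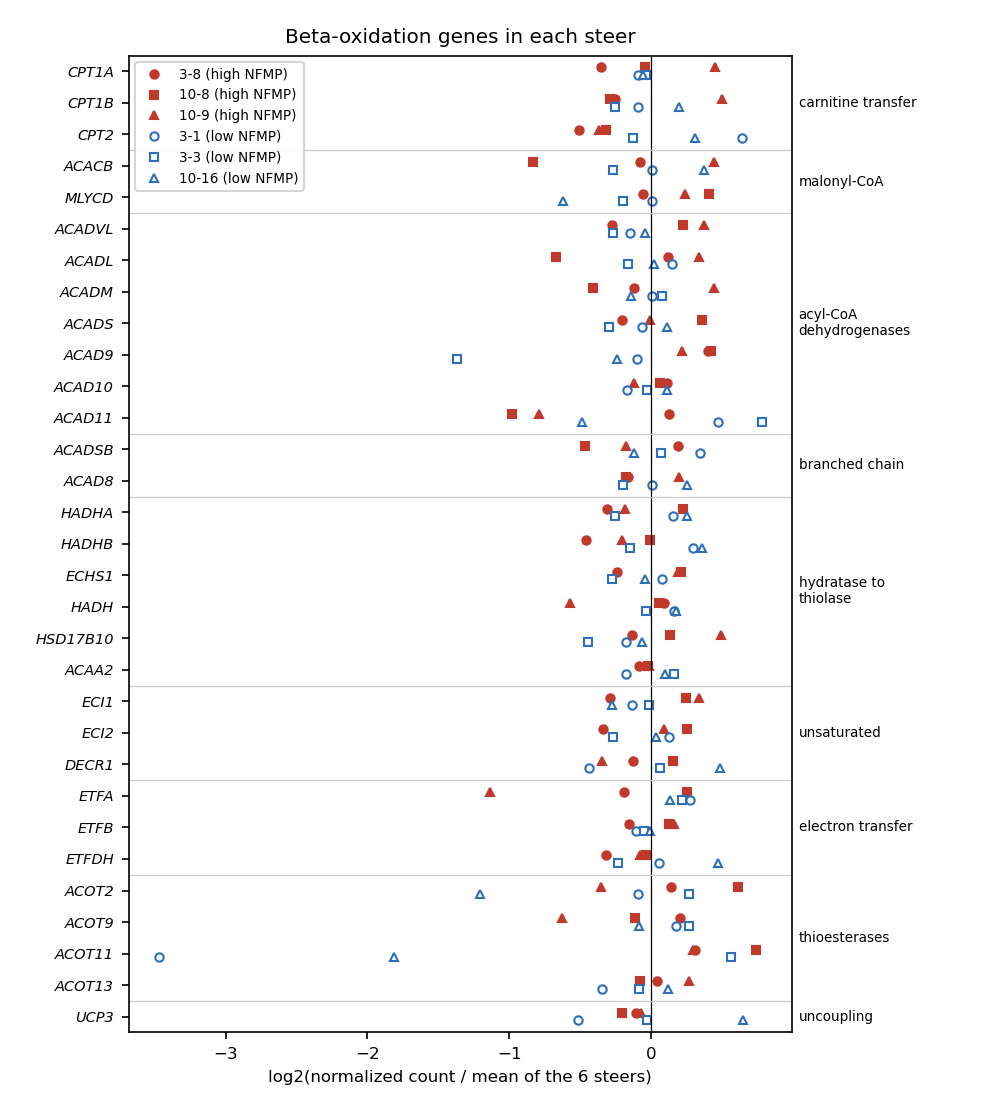
Normalized count of each of the 31 genes in each steer, as log2 of its ratio to the mean of the 6 steers (horizontal axis), with genes grouped by role. Filled red symbols are high-NFMP and open blue symbols low-NFMP steers. The groups are apart only for CPT2 and ACAD9, and ETFA is lowest in steer 10-9.

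Other genes that serve the pathway were also read. A list of 66 further genes (carnitine supply, acyl-CoA handling, flavin supply, branched and odd chains, peroxisomal and other enoyl enzymes, and regulators) had 64 tested members, of which 8 were higher and 5 lower at an unadjusted p below 0.05 (13 of 64, against 11.5% of all tested rows). Their median log2 fold change was 0.08. All these lists were made with earlier results of these libraries known, so the counts are not independent evidence. BBOX1, the last enzyme of carnitine synthesis, had at most 4 counts in a steer and was not tested, and ACOT1 was not matched.

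In the supply of carnitine, SLC22A5, the carnitine transporter of the cell membrane, was lower in every high-NFMP than in every low-NFMP steer. Its normalized counts were 176, 141 and 153 against 277, 311 and 203, with a log2 fold change of -0.75 ± 0.23 (SE, with an unadjusted p = 0.00605 and adjusted p = 0.213 by edgeR). ALDH9A1, an aldehyde dehydrogenase of carnitine synthesis, was higher in every high-NFMP steer, at 274, 289 and 312 against 200.9, 194 and 200.9. Its log2 fold change was 0.55 ± 0.20 (SE, with an unadjusted p = 0.0154 and adjusted p = 0.30 by edgeR). Both kept an unadjusted p below 0.05 by edgeR whichever steer was left out. SLC25A20, the carnitine-acylcarnitine translocase between CPT1 and CPT2, had a log2 fold change of -0.15, and CRAT, carnitine acetyltransferase, 0.26.

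Among 14 genes of branched-chain and odd-chain breakdown, 3 were lower and none higher at an unadjusted p below 0.05 by edgeR, where 5.74% and 5.73% of all tested rows were. As this list too was made with earlier results known, the count is not independent evidence about these steps. ACAT1, the thiolase of isoleucine and ketone body breakdown, had 569, 476 and 266 normalized counts in the high-NFMP steers and 824, 837 and 582 in the low-NFMP steers, a log2 fold change of -0.78 ± 0.26 (SE, edgeR adjusted p = 0.257). It ranged from -1.02 without steer 3-8 to -0.50 without 10-9, with an unadjusted p below 0.05 by edgeR whichever steer was left out. Steer 10-9 was again the lowest, as in ETFA. PCCB (propionyl-CoA carboxylase) and HIBADH (valine breakdown) had log2 fold changes of -0.74 and -0.49, with no overlap of the groups. By edgeR the unadjusted p of PCCB was 0.114 without steer 3-1 (log2 fold change -0.45) and 0.21 with age as a term (-0.41), and that of HIBADH was 0.073 without steer 10-9 or without 3-3. PCCA, the partner of PCCB, had a log2 fold change of 0.41 with a p of 0.105 by edgeR.

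ACAA1, a peroxisomal thiolase, had a log2 fold change of 0.75 (unadjusted p = 0.0244, adjusted p = 0.347 by edgeR), with overlapping groups. NUDT8, a mitochondrial hydrolase of CoA, had a log2 fold change of 0.87 (unadjusted p = 0.0481, adjusted p = 0.431 by edgeR), with at most 61.2 normalized counts in a steer. With a steer left out, ACAA1 kept an unadjusted p below 0.05 by edgeR in 2 of 6 fits and NUDT8 in 1 of 6, with p of up to 0.0798 (without 3-1) and 0.202 (without 10-9, log2 fold change 0.59). None of the 8 tested genes of flavin supply and assembly had an unadjusted p below 0.05 by edgeR, as 11.5% of all tested rows did, so that 0 of 8 is near the background. NUDT8 overlaps the gene DOC2G in the RefSeq annotation.

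The largest fold changes among the 6 lists were those of regulators. Of 18, 4 were higher and 1 lower at an unadjusted p below 0.05 (5.73% and 5.74% of all tested rows), and SIRT4 and PPARD had an adjusted p below 0.05 by edgeR (0.685% of all tested rows). The list was made with earlier results of these libraries known, so these counts are not independent evidence about regulators. PPARD (PPAR delta), a fatty acid receptor that acts on oxidative genes of muscle, had 878, 756 and 939 normalized counts in the high-NFMP steers and 427, 234 and 387 in the low-NFMP steers, a log2 fold change of 1.30 ± 0.23 (SE, edgeR adjusted p = 0.017). PPARGC1A (PGC-1 alpha), its coactivator, had 2849.6, 5121 and 4058 against 2849.6, 1730.4 and 1764, so that steers 3-8 and 3-1 met at the same value. Its log2 fold change was 0.92 ± 0.25 (SE, with an unadjusted p = 0.00249 and adjusted p = 0.145 by edgeR). The adjusted p of PPARGC1A was 0.0299 by DESeq2 and 0.0439 by edgeR without a filter, and it reached 0.417 by edgeR without steer 3-3.

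ESRRG, an orphan nuclear receptor of oxidative muscle, had 2329.7, 2314 and 1802 against 1276, 1195 and 1536 normalized counts, and its groups did not overlap. The log2 fold change was 0.69 ± 0.19 (SE, with an unadjusted p = 0.00232 and adjusted p = 0.141 by edgeR), and DESeq2 gave an adjusted p of 0.0429. SIRT4, a mitochondrial sirtuin that represses MLYCD protein activity, had 355, 307 and 323 against 118, 91.6 and 99.9 normalized counts, and a log2 fold change of 1.67 ± 0.22 (SE, edgeR adjusted p = 0.00303). Genes of small or noncoding RNAs overlap SIRT4, PPARGC1A, ESRRG and HIBADH in the RefSeq annotation, and their reads cannot be told apart here. The adjusted p of PPARD by edgeR rose to 0.0881 without steer 3-8, 0.0524 without 10-9 and 0.106 without 3-3, and limma after quantile normalization gave 0.171 for PPARD and 0.0906 for SIRT4. TFAM, which helps to transcribe the mitochondrial genome, was the lower one and overlaps ZNF239, at a log2 fold change of -0.50 (unadjusted p = 0.0419, adjusted p = 0.416 by edgeR). It kept such a p in 2 of 6 fits with a steer left out, with a p by edgeR of up to 0.172 (without 10-8). PPARA, ESRRA, PPARGC1B, SIRT3 and SIRT5 had log2 fold changes of 0.16, -0.12, -0.07, 0.37 and -0.05 and no p below 0.05.

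**Figure D4:**
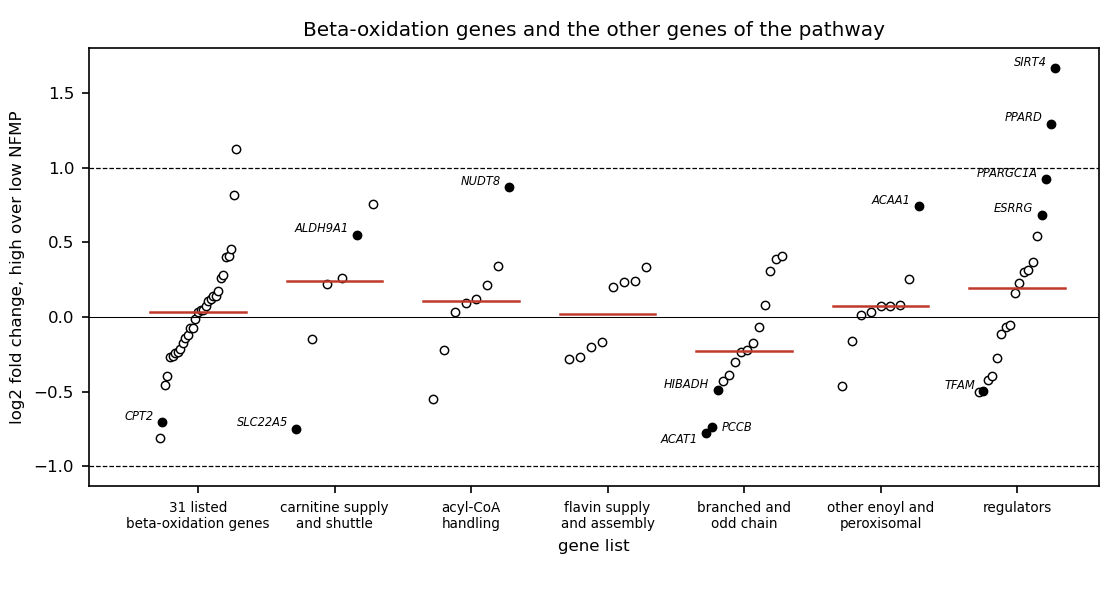
Log2 fold change, high over low NFMP, of the 31 genes and of 6 lists of other genes of the pathway, 1 of which is not drawn. Each point is a gene, filled and named at an unadjusted p below 0.05 by edgeR, red lines are medians and dashed lines a 2-fold difference. The 31 genes hold 1 filled point, CPT2, and the regulators 5, with SIRT4 at 1.67 and PPARD at 1.30.

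**Figure D5:**
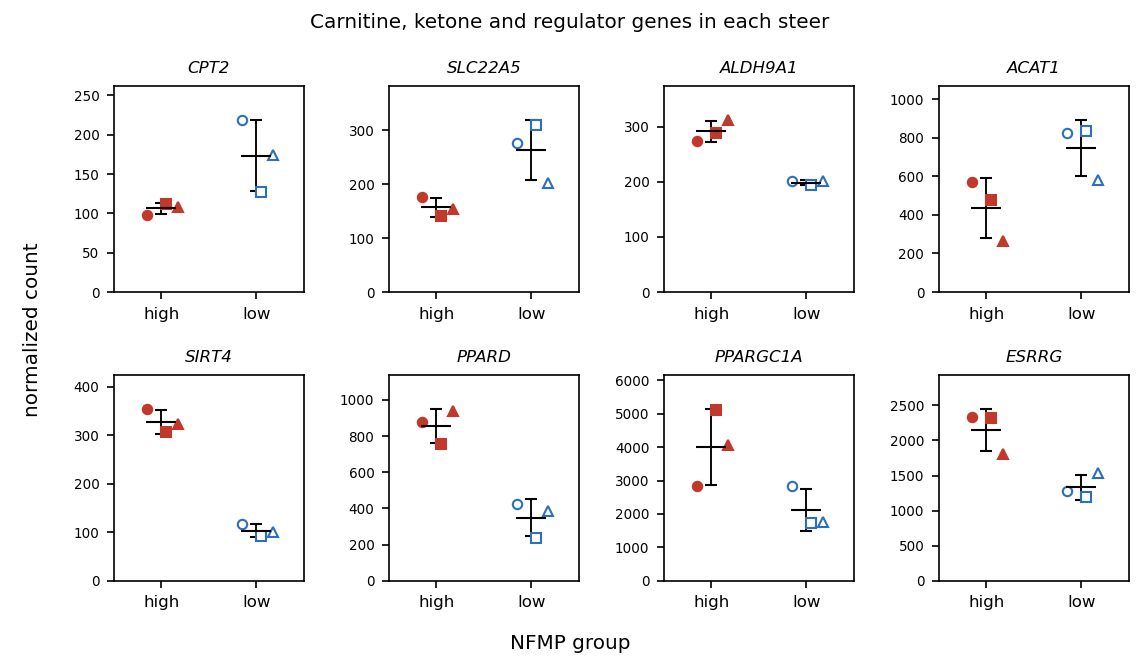
Normalized counts in each steer of CPT2 and of 7 other genes of the pathway, with symbols as in the plot of ratios and lines and bars for the mean and SD of 3 steers. CPT2, SLC22A5 and ACAT1 lie lower and ALDH9A1, SIRT4, PPARD and ESRRG higher in every high-NFMP steer, and PPARGC1A meets at 2849.6 in steers 3-8 and 3-1.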

How the data were processed

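LT muscle of 6 steers was measured with a 3′ mRNA method (oligo-dT priming, single-end reads), 3 high-NFMP and 3 low-NFMP, as labelled. The authors deposited raw read counts per gene symbol, not normalized, between 16283873 and 17192750 in a library. Their methods name Tophat2 with HTSeq against UMD3.1 in one place and Bowtie2, counting reads with several alignments too, in another, and which made the deposited counts is not settled. If the latter, near-identical genes share reads. Whether the counting used strand is not stated.

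The test was that of edgeR 4.0.16 (R 4.3.3), with the default filter (minimum count 10, minimum total 15; 15039 of 23015 rows kept), TMM factors, robust dispersions and the quasi-likelihood test. Benjamini-Hochberg adjustment covered all tested rows. The 95% intervals use the standard error from the F statistic and the total degrees of freedom of the fit. Normalized counts are reads divided by each library's TMM-adjusted size relative to the average of the 6. In this 3′ method longer transcripts do not give more reads, and levels were compared between steers and not between genes. The biological coefficient of variation was 25.1%. No source used here mentions molecular identifiers, so PCR copies may be among the counts.

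The 31 genes and all lists were chosen with earlier results of these data known. All 31 genes were to be named, with values in every steer for those at p below 0.05, those of the entry step and its control, the most counted and those whose groups do not overlap. Of the 66 further genes those at p below 0.05 were to be named, and others named were chosen after their values were seen. Of the further genes, 1 is included in the counts but not reported here by name. MMUT was matched as MUT through a RefSeq synonym. Gene overlaps were read off RefSeq's ARS-UCD2.0 annotation, which matched all 31 genes and is not the build named by the study, so no coordinates are given. Alternatives were other filters, RLE factors, library totals, DESeq2 1.42.0, quantile normalization of log2(count + 1) with limma 3.58.1, a term for the leading number in a steer's label or for its age, and fits that omit 1 steer. The procedures were also run on simulated counts, and the outcome is not given here.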

Additional observations from a re-analysis of the deposited data

How the results depend on the processing

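No alternative gave any of the 31 genes an adjusted p below 0.05, over 8 other settings and 6 fits with a steer left out. The number lower at an unadjusted p below 0.05, 1 as reported, was 2 without a filter, with RLE factors, with DESeq2 and with a term for the leading number of a steer's label, and 3 with library totals alone. The added genes were ACAD11 in the first 3 settings and with totals, and HADHB with totals and with the label number. With age as a term the lower gene was ACAD11 at -1.11, past a 2-fold change (1 gene, against 0), and 1 gene, HSD17B10, was higher. With a steer left out the number lower ranged from 0 (without 3-1) to 3 (without 10-8), the number higher from 0 to 3 (without 3-8, which added MLYCD, ACADVL and HSD17B10), and the number past a 2-fold change from 0 to 1.

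The median log2 fold change of the 31 genes was -0.061 with the label number as a term and lay between -0.058 (without 10-9) and 0.114 with a steer left out. Under the other settings signs turned with library totals for ACAD10 (-0.018), ECI2 (-0.024) and ACADM (-0.030), with the label number for CPT1A (-0.00028), CPT1B (-0.061), ECI2 (-0.070) and ACADL (0.010), and with age for HADHA (0.053), ACAD8 (0.056), ACACB (0.038), ACAD10 (-0.059) and ACADL (0.127). With a steer left out, the log2 fold change of 10 genes also crossed 0, with ranges of -0.48 to 0.16 (UCP3), -0.38 to 0.11 (DECR1), -0.19 to 0.088 (ACAD8), -0.11 to 0.29 (CPT1A), -0.46 to 0.19 (ACACB), -0.022 to 0.15 (ACAD10), -0.22 to 0.25 (CPT1B), -0.063 to 0.20 (ECI2), -0.22 to 0.26 (ACADL) and -0.23 to 0.24 (ACADM). Of the further genes, 5 were higher with the label number and 3 lower with quantile normalization, and 5 to 9 were higher with a steer left out. Genes past p and fold change over the whole table, 586 as reported (381 higher and 205 lower), were 969 (627 and 342) without a filter and 364 (247 and 117) with at least 10 counts in every library, and the number lower ranged from 174 to 378 (without 3-8). The causes were not tested.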
